A study of Homo sapiens and Mus musculus with 16 samples.

Results

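The mouse Zfp900 series comprises the zinc finger genes whose symbols run from Zfp900 to Zfp999. Members were taken by symbol alone from the mouse counts, which listed 57 of them among 15881 genes, and the human table of 22286 genes listed 0 under such symbols. The 57 genes were followed in the 4 mouse embryonic stem cell (mESC) libraries of a study with 16 libraries, which sequenced RNA from purified P-bodies beside RNA of the cytoplasm. P-bodies are cytoplasmic granules of RNA and protein that lack a membrane. They were sorted as fluorescent particles from lysed cells that carried the P-body protein LSM14A fused to GFP, and the cytoplasm libraries were made from the lysate fraction before the sort, so cytoplasm RNA here still included P-bodies. Both fractions came from the line KH2-LSM14a-GFP, a KH2 mouse ES cell line that the labels give as treated with serum-LIF, while the study's methods describe a naive 2i and LIF medium for mouse ES cells. The methods describe a lentiviral vector with an EF1a promoter for the fusion protein. Each fraction had 2 libraries of total RNA, and the study states that its sequencing assays used at least 2 biological replicates. Cells without the fusion protein were not analysed here, and whether the line is a clone is not given in the sources used here.

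Most genes of this numbered series encode KRAB zinc finger proteins, a large family of repressors that has grown by tandem duplication in rodents. An array of C2H2 zinc fingers binds a DNA sequence, often within a retrotransposon, and the KRAB domain recruits the corepressor TRIM28, which brings the methyltransferase SETDB1 and leads to histone H3 lysine 9 methylation and silencing. In ES cells this system holds many endogenous retroviruses silent. Because the genes arose as copies of each other, their transcripts can be nearly the same in sequence, and short reads may not tell them apart.

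The sequence that the members share was the linker that joins neighbouring zinc fingers. The following 30-base windows were read 5′ to 3′ on the coding strand of GENCODE M21 transcripts (mm10), around the first linker match of 8 members from 3 gene clusters, and are shown because they let a reader see both how alike the copies are and where they differ. Capitals mark the linker motif.
Zfp966: acacatACAGGAGAAAAACCCTATgaatgt
Zfp967: acacatACAGGAGAAAAACCCTATgaatgt
Zfp968: acacatACAGGAGAAAAACCCTATgaatgt
Zfp971: acacatACAGGAGAGAAACCCTATgaatgt
Zfp980: attcatACAGGAGAGAAACCTTACaaatgt
Zfp981: attcatACGGGAGAGAAACCTTACaaatgc
Zfp945: attcatACAGGAGAGAAACCTTATaaatgt
Zfp948: attcatACTGGTGAGAAACCCTACaagtgc

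The windows of Zfp966 (chr2:175921361-175921390, minus strand), Zfp967 (chr2:176530714-176530743, plus strand) and Zfp968 (chr2:175382172-175382201, plus strand) were equal at all 30 bases. Zfp971 (chr2:178032979-178033008, plus strand), from the same cluster, had 29 of 30 bases equal to Zfp966. The chromosome 4 members Zfp980 (chr4:145701516-145701545, plus strand) and Zfp981 (chr4:146537397-146537426, plus strand) had 24 and 22 equal bases, and the chromosome 17 members Zfp945 (chr17:22851532-22851561, minus strand) and Zfp948 (chr17:21587250-21587279, plus strand) had 25 and 21. Each window lay in coding sequence without an intron. Every window was placed on a match to the motif, so the motif's fixed letters were equal in all windows by the search itself. Only the remaining bases could differ. The motif searched was ACNGGNGANAANCCNTAN, 18 letters in which N is any base, on the coding strand only. It occurred in the coding sequence of 55 of the 56 members that have one (98.2%), with a median of 7 matches per member. Among the other numbered Zfp genes 65.1% of 318 held it, and among all 14659 coding genes counted 2.52% did. A KRAB pattern was found in the predicted protein of 53 of the 56 members and of 44.7% of the other numbered Zfp genes. A match to either pattern is a description of sequence, not of function.

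Library totals ranged from 8148119 to 11721055 counts, so that 3 counts, used as the floor of detection, stood for 0.295 to 0.319 CPM (counts scaled to a common library total). Levels are given as CPM scaled with TMM factors, which rest on the assumption that most genes do not change between libraries. The factors were 0.868 and 0.872 for the P-body libraries and 1.15 and 1.14 for the cytoplasm libraries. The replicates of a fraction had a Spearman's rho of 0.988 for P-bodies and 0.978 for cytoplasm across genes, and their counts differed by more than sampling noise. All 12 listed ES cell markers had a row in the table and their summed level lay between 3135 and 3752 CPM in every library, whereas none of the 8 fibroblast markers (feeder cells) had a row, which the table gives to genes with at least 10 counts over the samples. Single ES cell markers moved both ways, with 6 enriched in P-bodies and 5 depleted by the test given below (25.8% and 20.6% of all genes).

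The Zfp900 series was concentrated in the P-body libraries. With edgeR's quasi-likelihood test, 52 of the 57 members were enriched in P-bodies at a Benjamini-Hochberg adjusted p under 0.05, against 25.8% of all genes tested. No member was depleted: 0 passed the test, 0 were lower at an unadjusted p under 0.05 and 0 were depleted by DESeq2, where 20.6% of all genes were called depleted by edgeR. In 54 of the 57 both P-body libraries lay above both cytoplasm libraries, against 33.6% of all genes, and in 1, the scarce Zfp972, both lay below, against 39.4% of all genes. The median log2 change of P-body against cytoplasm was 1.62 over the members, with quartiles of 1.32 and 1.80, and -0.11 over all genes. The log2 changes of 49 members lay above the 90th percentile of all genes, which was 1.06. These values compare shares of a library, so an RNA that is more abundant in P-bodies and a cytoplasm library that holds more of other RNAs cannot be told apart, nor can fewer cells of a type and less RNA per cell in such bulk samples.

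Summed over the 57 genes, the series reached 24384 and 24318 CPM in the P-body libraries and 7597 and 7347 CPM in the cytoplasm libraries. The sums were high in both P-body libraries and low in both cytoplasm libraries, with replicates lying close together. This sum is not changed by how reads are divided among members, and it was 3.26-fold higher in P-bodies (24351 ± 46.4 against 7472 ± 176 CPM, SD, n = 2 each), a log2 ratio of 1.70, with 1.68 to 1.73 over the 4 pairings of a P-body with a cytoplasm library. As a share of all counts, without TMM scaling, the members made up 2.12% of each P-body library and 0.877% and 0.841% of the cytoplasm libraries.

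**Figure D1:**
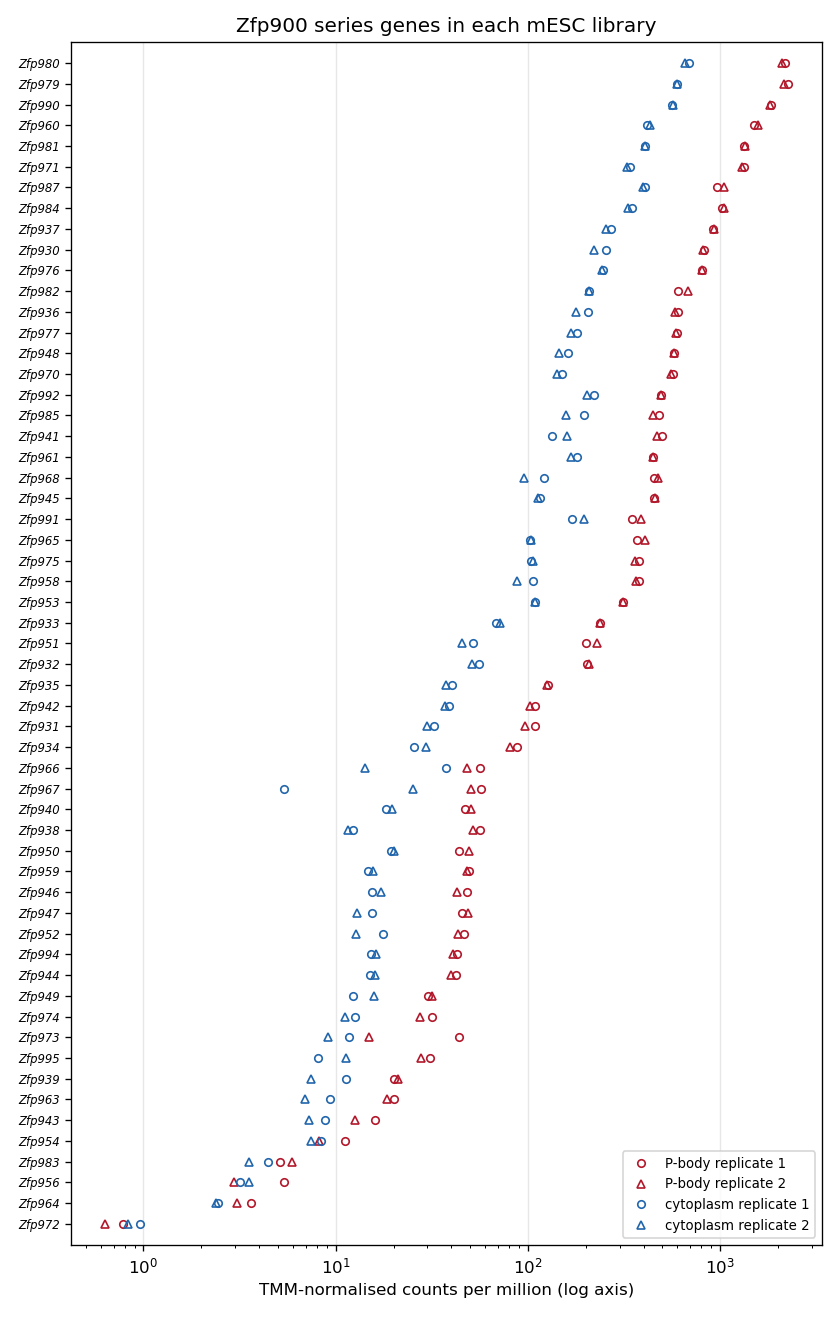
TMM-normalised CPM (log axis) of each of the 57 members in the 2 P-body (red) and 2 cytoplasm (blue) libraries of mESC, ordered by mean level, with circles for replicate 1 and triangles for replicate 2. The red points lie to the right of the blue points in 54 members, and the points mix in members at the bottom of the plot, all with means below 10 CPM.

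The member with the smallest p was Zfp971 (chr2:178023284-178034022, plus strand), which ranked 2 among all 15881 genes by p and 70 by log2 change. It was counted at 1335 and 1306 CPM in the P-body libraries and at 339 and 327 CPM in the cytoplasm libraries. The P-body values were all far above the cytoplasm values, with a log2 change of 1.99 ± 0.039 (SE) and an edgeR adjusted p of 3.14e-21. Zfp979 (chr4:147611937-147642513, minus strand) ranked 3 by p and stood at 2251 and 2139 CPM in P-bodies against 599 and 594 CPM in cytoplasm, with the same adjusted p from edgeR and a log2 change of 1.88 ± 0.037. Zfp960 (chr17:17064113-17089628, plus strand) was at 1507 and 1572 CPM against 415 and 430 CPM, a log2 change of 1.87 ± 0.039.

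Zfp990, Zfp981 and Zfp980 lie with Zfp979 in the chromosome 4 cluster, and each was again high in both P-body libraries. Zfp990 (chr4:145510759-145539188, plus strand) had 1851 and 1814 CPM in P-bodies and 562 and 568 CPM in cytoplasm, a log2 change of 1.70 ± 0.036. Zfp981 (chr4:146502027-146539395, plus strand) had 1331 and 1355 CPM against 408 and 409 CPM, a log2 change of 1.72 ± 0.037. Zfp980 (chr4:145670685-145704441, plus strand) had 2169 and 2101 CPM against 686 and 658 CPM, a log2 change of 1.67 ± 0.037. The fractions did not overlap in any of these genes, and the gap between fractions was many times the gap between replicates. Zfp937 (chr2:150218073-150240725, plus strand), on chromosome 2 but outside the cluster there, had 919 and 935 CPM in P-bodies against 272 and 254 CPM in cytoplasm (log2 change 1.82 ± 0.042), and Zfp970 (chr2:177464733-177478129, plus strand) had 569 and 557 CPM against 150 and 141 CPM (1.95 ± 0.046). For these 5 genes the edgeR adjusted p lay between 5.29e-21 and 1.74e-20, and for Zfp960 it was 4.47e-21.

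Levels per kilobase of the longest GENCODE M21 transcript are meant for comparing different genes. On that scale Zfp971 led the P-body libraries with 935 CPM per kb and Zfp979 followed with 846. The longest transcript of Zfp971 has 1413 bases, 1410 of them in its coding sequence, against 2594 and 1221 for Zfp979. The order thus depends on these annotated lengths, and reads were counted on other (refGene) transcripts. In cytoplasm the same pair led with 235 and 230 CPM per kb. Zfp990 had 602 CPM per kb in P-bodies and 186 in cytoplasm, Zfp960 had 577 and 158, and Zfp980 had 533 and 168. At the other end Zfp964 had 0.773 and 0.557 CPM per kb.

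A pair of members with lower counts, Zfp932 and Zfp961, gave like calls. Zfp932 (chr5:109996521-110010411, plus strand), which has been studied as a repressor of endogenous retroviruses together with its sister gene Gm15446, had 204 and 207 CPM in P-bodies and 55.6 and 51.1 CPM in cytoplasm. Both P-body values were well above both cytoplasm values, and the log2 change was 1.95 ± 0.063 (edgeR adjusted p = 3.6e-18). Gm15446 had a log2 change of 1.59 ± 0.32 at means of 4.93 and 1.62 CPM, and the summed counts of both genes gave 1.94. Zfp961 (chr8:71951038-71993792, plus strand), a KRAB zinc finger gene outside the clusters, had 447 and 449 CPM against 181 and 168 CPM. Its fractions did not overlap either, and its log2 change of 1.36 ± 0.047 (edgeR adjusted p = 1.15e-17) was among the lower values of the well-counted members.

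The enrichment was not the same size in every member. Among the 47 members with a mean of at least 20 CPM, all enriched, log2 changes ran from 1.02 to 2.18 with a median of 1.70 and an SD of 0.28, while the median SE of a single gene was 0.059. The top value belonged to Zfp938 (56.5 and 52.1 CPM in P-bodies, 12.3 and 11.6 CPM in cytoplasm, log2 change 2.18 ± 0.12). Zfp951 followed with 202 and 228 CPM against 51.6 and 45.4 CPM (2.15 ± 0.073). Near the bottom, Zfp992 had 495 CPM in each P-body library against 221 and 203 CPM (1.22 ± 0.046), and Zfp991 had 349 and 388 CPM against 169 and 195 CPM (1.02 ± 0.059). The intervals of 1 SE around Zfp951 and Zfp991 were far apart, although the difference between these genes was not tested, and Zfp938, Zfp951, Zfp991 and Zfp992 were chosen here after their values were seen.

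**Figure D2:**
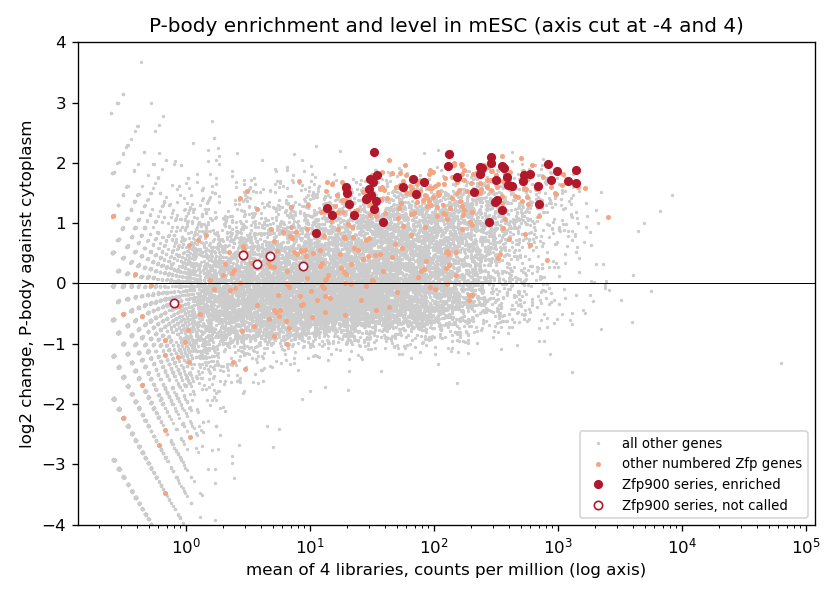
Log2 change of P-body against cytoplasm in mESC (vertical axis, cut at both ends) against the mean level over 4 libraries in CPM (log axis) for all genes (grey), other numbered Zfp genes (orange) and the Zfp900 series (red, filled where enriched at an adjusted p under 0.05). The filled points form a band from 0.83 to 2.18 and the 5 open points are all below 10 CPM.

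The 5 members that did not pass the test were the 5 with the lowest levels. Zfp954 had 11.2 and 8.23 CPM in P-bodies and 8.40 and 7.46 CPM in cytoplasm, so that its fractions overlapped, at 0.30 ± 0.20 on the log2 scale (edgeR adjusted p = 0.245). Zfp983 had 5.11 and 5.91 CPM against 4.46 and 3.52 CPM (0.46 ± 0.26, edgeR adjusted p = 0.15), and Zfp964 had 3.64 and 3.06 CPM against 2.44 and 2.38 CPM (0.47 ± 0.33, edgeR adjusted p = 0.247). In both, the P-body libraries were above the cytoplasm libraries without reaching the threshold. Zfp956 had 5.41 and 2.95 CPM against 3.19 and 3.52 CPM (0.32 ± 0.31, edgeR adjusted p = 0.418), with overlapping fractions. Zfp972, at 0.787 and 0.633 CPM against 0.956 and 0.829 CPM, rested on 6 to 9 counts per library and was the only member with a log2 change below 0 (-0.32 ± 0.67, edgeR adjusted p = 0.724).

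Grouped by level, 22 of 22 members between 10 and 100 CPM were enriched with a median log2 change of 1.48, where 39.2% of the 5400 genes of that level were, and 30 of 30 members at 100 CPM or more were enriched with a median of 1.77, where 68.6% of 2226 genes were. Below 10 CPM, 0 of 5 members and 5.58% of 8255 genes were enriched. The low members also differed in base composition, with a median GC content of 47.1% against 38.6% and 38.0% in the higher classes. The lowest enriched member was Zfp943 with 15.9 and 12.7 CPM in P-bodies and 8.82 and 7.25 CPM in cytoplasm (log2 change 0.83 ± 0.19, edgeR adjusted p = 0.000753). Its P-body libraries were both above its cytoplasm libraries, and its call was lost with scaling by library size alone.

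KRAB zinc finger genes lie in tandem clusters, and 37 members fell into 5 such clusters, defined as at least 3 members with gaps of up to 1 Mb. Members occurred on 11 chromosomes. The chromosome 4 cluster (chr4:145510759-147848366, 11 members) held the most RNA, with summed levels of 11757 and 11752 CPM in P-bodies and 3875 and 3794 CPM in cytoplasm. All 11 of its members were enriched, and the log2 ratio of the sums was 1.62, with 1.60 to 1.63 over the 4 pairings of libraries. The chromosome 2 cluster (chr2:175372436-178078476, 9 members, 8 of them enriched) had sums of 2996 and 2957 CPM in P-bodies and 801 and 747 CPM in cytoplasm, a log2 ratio of 1.94 (1.88 to 2.0).

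The pairings of these clusters did not overlap, so the summed RNA of the chromosome 2 cluster had the larger ratio in every pairing, a difference that was described and not tested. The chromosome 17 cluster (chr17:21567008-22867134, 10 members, 9 enriched) had a log2 ratio of 1.81 (1.77 to 1.85). The chromosome 8 cluster (chr8:69209038-69749970, 3 members, 2 enriched) had 1.77 (1.65 to 1.89), and the chromosome 7 cluster (chr7:42579783-43192109, 4 members, 4 enriched) had 1.72 (1.67 to 1.77). These 3 ranges overlapped each other. The 20 members outside the clusters, 18 of them enriched, had a log2 ratio of summed counts of 1.74 (1.73 to 1.76), so that membership of a cluster did not go with a higher ratio throughout.

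**Figure D3:**
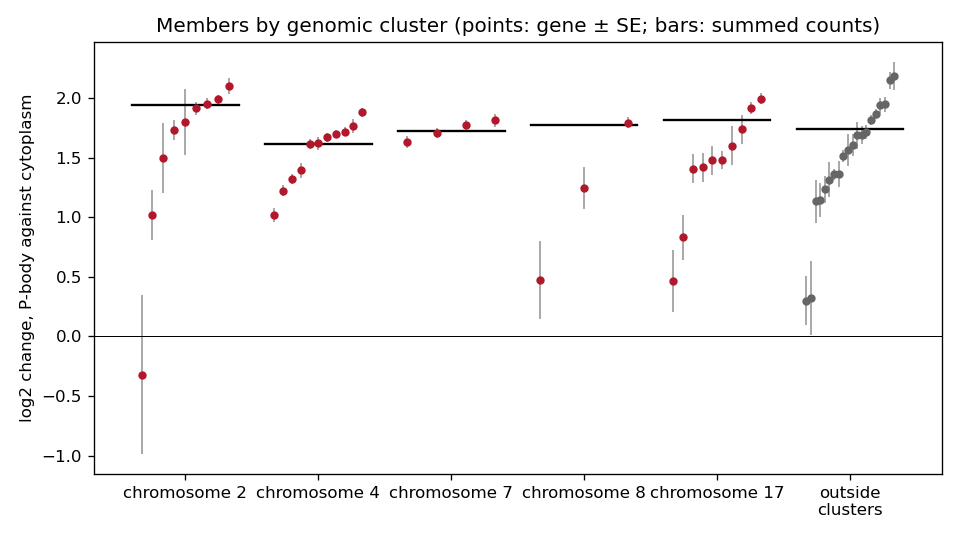
Log2 change of P-body against cytoplasm for each member (points, bars of 1 SE), grouped by genomic cluster and ordered by value within it, with a black line at the log2 ratio of the summed counts. The lines run from 1.62 for chromosome 4 to 1.94 for chromosome 2. Members within a cluster spread more widely than the cluster sums, except on chromosome 7, where they run from 1.63 to 1.81.

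Some members had nearly the same transcript sequence. Reads were not examined, and the refGene transcripts used for counting differ from the GENCODE M21 transcripts used here, so shared 31-mers only approximate shared reads. The share of a member's 31-mers (stretches of 31 bases) that occur in no other gene's transcripts ranged from 0%, in Zfp935 and Zfp967, upward: 15 members were below 50% and 18 were at 90% or more. Zfp966, Zfp967 and Zfp968 had the same coding sequence of 1455 bases, for a protein of 485 residues, and Zfp965 and Zfp973 had the same coding sequence of 954 bases, for 318 residues. All 5 lie in the chromosome 2 cluster. Zfp991 and Zfp992, on chromosome 4, differed at 8 of 1719 coding bases, and Zfp947 and Zfp995 at 65 of 1311.

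Among these copies, Zfp966 and Zfp967 in cytoplasm and Zfp973 in P-bodies varied between replicates more than their sums did, while the abundant copies Zfp965 and Zfp968 had replicate gaps of at most 0.34 on the log2 scale. Zfp967 was at 56.8 and 50.8 CPM in P-bodies and at 5.42 and 25.4 CPM in cytoplasm. Zfp966 was at 56.3 and 48.3 CPM in P-bodies and at 37.6 and 14.2 CPM in cytoplasm. The library in which Zfp967 was low was the library in which Zfp966 was high, and the sum of this pair was 113 and 99.1 CPM in P-bodies and 43.0 and 39.6 CPM in cytoplasm, a log2 ratio of 1.36. Zfp968, the third copy, had 454 and 475 CPM against 121 and 95.6 CPM (log2 change 2.10 ± 0.067, edgeR adjusted p = 2.18e-18).

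The single-gene results of these copies depended on the tool and on the library left out. The log2 change of Zfp966 was 1.02 ± 0.21 (edgeR adjusted p = 0.000301) and that of Zfp967 was 1.80 ± 0.27 (edgeR adjusted p = 5.79e-06), but DESeq2 called neither (adjusted p = 0.259 and 0.164). Without cytoplasm replicate 1 the log2 change of Zfp967 was 1.09, and without cytoplasm replicate 2 it was 3.31, while Zfp966 moved the opposite way, to 1.88 and 0.48. The 3 genes summed to 567 and 574 CPM in P-bodies and to 164 and 135 CPM in cytoplasm. Fitted as 1 gene they had a log2 change of 1.93 ± 0.058.

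Zfp965 had 372 and 406 CPM in P-bodies and 103 and 104 CPM in cytoplasm (log2 change 1.91 ± 0.054, edgeR adjusted p = 2.56e-19). Its copy Zfp973 had 43.7 and 15.0 CPM against 11.8 and 9.12 CPM (1.50 ± 0.29, edgeR adjusted p = 0.00015). Its P-body replicates stood apart although both were above the cytoplasm values, and the call was lost without P-body replicate 1 (log2 change 0.52, edgeR adjusted p = 0.0708) and with DESeq2 (adjusted p = 0.129). The sum of the pair was 415 and 421 CPM against 115 and 113 CPM, with a log2 change of 1.88 ± 0.048 when fitted as 1 gene. The nearly identical Zfp991 and Zfp992 summed to 844 and 884 CPM against 391 and 398 CPM, a log2 ratio of 1.13, below the ratio of any cluster sum. Zfp947 and Zfp995 summed to 76.5 and 76.8 CPM against 23.5 and 24.2 CPM, a log2 ratio of 1.68.

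**Figure D4:**
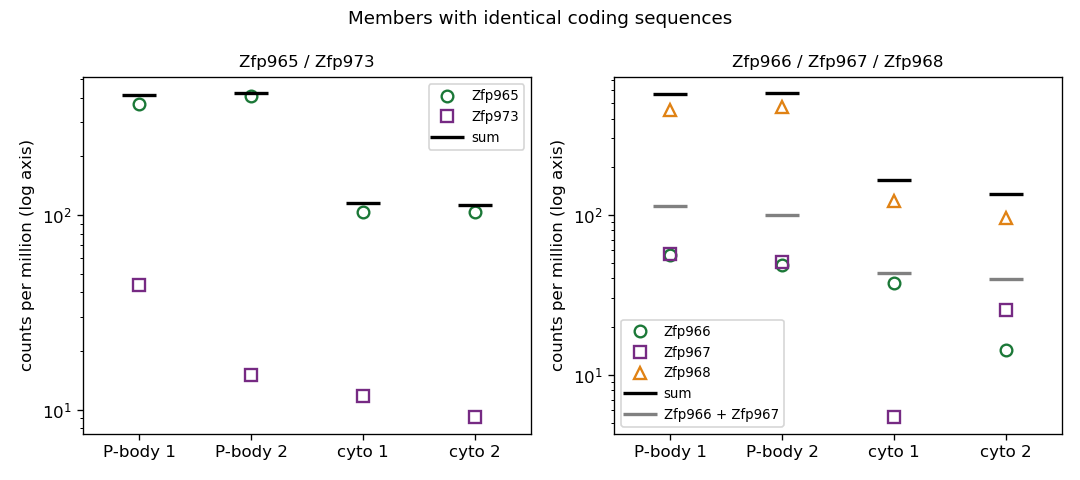
TMM-normalised CPM (log axis) of the members with identical coding sequences in each of the 4 mESC libraries, with black lines for the sum over the copies and grey lines for Zfp966 plus Zfp967. Zfp966 and Zfp967 shift between replicates in the cytoplasm and Zfp973 in the P-body libraries, while the sums lie at 135 to 164 CPM in cytoplasm and 567 to 574 CPM in P-bodies for the 3-gene group.

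Across the members at 20 CPM or more, the median gap between replicates was small whether or not sequence was shared. This median was 0.060 on the log2 scale in P-bodies and 0.069 in cytoplasm for the 13 members with under 50% unique 31-mers, and 0.071 and 0.10 for the 34 others. The highest gaps in cytoplasm were 2.23 in the first set, for Zfp967, and 0.47 in the second. In P-bodies they were 0.22 and 0.19. Zfp973, with 9.45% unique 31-mers and just under the cut at a mean of 19.9 CPM, had a P-body gap of 1.54. Of the 42 members with at least 50% unique 31-mers at any level, 38 were enriched with a median log2 change of 1.60, and of the 15 below 50%, 14 were enriched with a median of 1.69. Enriched members were thus found at both ends of the uniqueness scale.

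**Figure D5:**
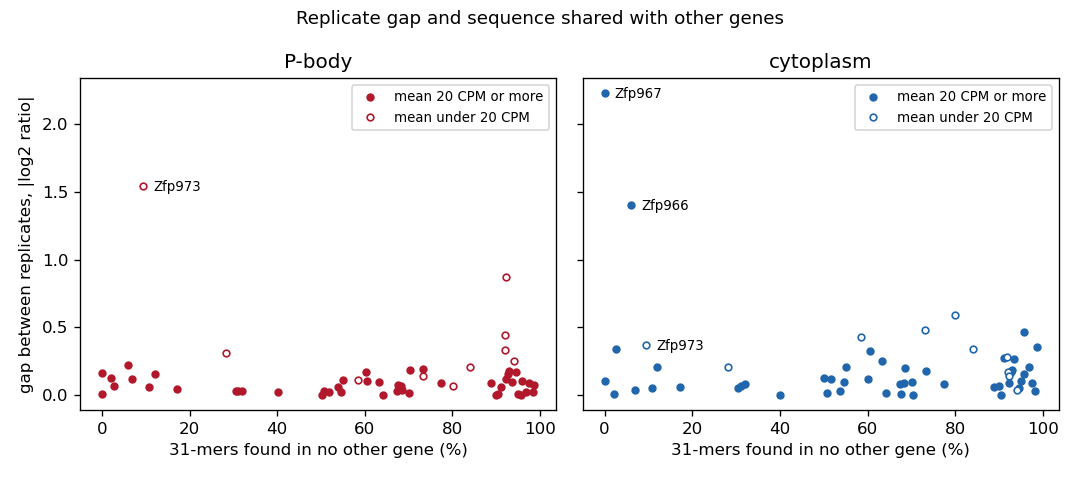
Gap between the 2 replicates of a fraction (absolute log2 ratio) against the share of a member's 31-mers found in no other gene, for P-bodies (left) and cytoplasm (right), with open points for members under 20 CPM. The points above 1 are Zfp973 in P-bodies and Zfp966 and Zfp967 in cytoplasm, all at under 10% unique 31-mers.

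Members also shared sequence with genes outside the series. Zfp960 had 86.8% of its 31-mers in common with Zfp97, another zinc finger gene, which had a log2 change of 1.82, and the summed counts of both gave 1.84 where Zfp960 alone gave 1.87. Zfp980 shared 69.8% with Rex2, which had 1.45, and their sum gave 1.58 where Zfp980 alone gave 1.67. Zfp984 shared 58.1% with Gm13212 (1.82), and their sum gave 1.65. In the case of Zfp991 the partner differed more, since Znf41-ps, with 70.9% of the 31-mers in common, had a log2 change of 1.74 and the sum gave 1.35 where Zfp991 alone gave 1.02. Partners of Zfp935 (Gm49359, 99.2% shared), Zfp987 (Gm8935, 78.7%), Zfp970 and Zfp971 (both Gm14288) had no row in the count table.

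Beside the series, 225 of the 324 other numbered Zfp genes (69.4%) were enriched and 19 depleted, with a median log2 change of 1.13. They had a lower median level of 41.0 CPM, against 132 CPM for the members. Over all genes 25.8% were enriched and 20.6% depleted, and of those between 10 and 100 CPM 39.2% were enriched. The 40 other genes counted within the spans of the clusters had 31 enriched (77.5%) and 2 depleted, with a median of 1.53. Their median level was 107 CPM, and of all genes at 100 CPM or more 68.6% were enriched. Among the 40, the 8 numbered Zfp genes were all enriched, and the depleted pair were Vmn2r111 and Vmn2r112, vomeronasal receptor genes with P-body means of 0.105 and 0 CPM. The overlap of these sets with the members in level, sequence and location was not separated from the symbol rule, and no difference between the sets was tested.

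Members were AT-rich, with a median transcript GC content of 38.5% (33.2% to 53.9%) against 45.2% in the other numbered Zfp genes and 49.1% in all coding genes, and 55 of the 57 were below the median GC content of all genes. Their median transcript length was 2798 bases, against 3472 for all coding genes, and their predicted proteins held a median of 11 C2H2 fingers, from 0 in Zfp935 and Zfp972 to 21. Some annotated transcripts hold little beyond the coding sequence, as in Zfp970 (1569 bases, 1566 of them coding) and Zfp971 (1413 and 1410). For such members GC content and length may miss untranslated parts. Within the 47 members at 20 CPM or more, log2 change had a Spearman's rho of 0.14 with GC content, -0.45 with transcript length, 0.048 with the number of fingers and 0.31 with mean level. Over all 57 members, the low ones included, rho was 0.57 with mean level, -0.19 with GC content and -0.26 with length, and over the 56 with a coding sequence it was 0.24 with the number of fingers. Across all genes rho was -0.23 with GC content, 0.12 with length and 0.52 with level. These are descriptions over genes of the same 4 libraries, without a p, since genes are not independent replicates, and the part of GC content, length or level in the members' enrichment was not tested.

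The RNAs of genes that act with or beside KRAB zinc finger proteins lay on both sides. Of 41 listed corepressor, chromatin and retroelement regulator genes with a row, 24 were enriched (58.5%), 10 were depleted and 7 passed neither way. Over all genes 25.8% were enriched and 20.6% depleted. The median log2 change was 0.27, against -0.11 over all genes. However, the list had a median level of 195 CPM, and of all genes at 100 CPM or more 68.6% were enriched, with a median of 0.59. The list also holds zinc finger genes, among them Zfp57, Zfp809 and Zfp42. With scaling by library size alone, 14 were enriched and 19 depleted, so the split depends on the scaling. Trim28, the corepressor bound by the KRAB domain, had 222 and 247 CPM in P-bodies and 305 and 330 CPM in cytoplasm (log2 change -0.44 ± 0.053, edgeR adjusted p = 1.73e-07). Both P-body libraries were below both cytoplasm libraries.

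Setdb1, the histone H3 lysine 9 methyltransferase, had 186 and 197 CPM against 217 and 212 CPM (-0.17 ± 0.051, edgeR adjusted p = 0.00965), and the call was lost without P-body replicate 1 (-0.12, edgeR adjusted p = 0.145). The remodellers Chd4 (345 in each P-body library against 518 and 558 CPM, log2 change -0.64 ± 0.043, edgeR adjusted p = 5.53e-12) and Chd3 (35.8 and 37.5 against 61.5 and 69.1 CPM, -0.83 ± 0.090, edgeR adjusted p = 2.92e-08) were depleted. Gatad2b, a subunit of the same NuRD complex, was enriched (1548 and 1546 against 650 and 661 CPM, 1.24 ± 0.035, edgeR adjusted p = 3.45e-19), so subunits of a complex lay on both sides.

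The KRAB zinc finger genes of that list, Zfp809 and Zfp57, were enriched, but only Zfp809 lay within the range of the enriched members. All genes at 100 CPM or more had a median log2 change of 0.59. Zfp809, which recognises the primer binding site of murine leukaemia viruses, had 580 and 571 CPM in P-bodies against 186 and 173 CPM in cytoplasm (1.68 ± 0.045 on the log2 scale, edgeR adjusted p = 1.32e-19). Zfp57, which protects imprinted control regions, had 519 and 496 CPM against 296 and 310 CPM, 0.74 ± 0.043 on the log2 scale (edgeR adjusted p = 3.05e-13). The fractions of both genes did not overlap, and the value of Zfp57 was below that of every enriched member.

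Of the marker lists of other states, some had sums that differed between the fractions. Summed levels of 8 two-cell stage genes, which mark a rare state of ES cell cultures, were 250 and 240 CPM in P-bodies and 103 and 104 CPM in cytoplasm, with 3 of 8 enriched. These were Zscan4f, Zscan4c and Zscan4d, whose P-body means of 151, 66.3 and 21.1 CPM made up most of the sum. The others had P-body means of 3.06 CPM or less and were not called, and Tcstv1 and Tcstv3 had log2 changes below 0. The 6 neural markers summed to 81.5 and 84.0 CPM against 48.0 and 56.2 CPM, with 2 enriched and 2 depleted, and the 7 measured primitive endoderm markers to 71.0 and 71.2 CPM against 108 and 111 CPM, with 2 depleted. Shares over all genes were 25.8% enriched and 20.6% depleted. Sums of the 5 measured nuclear RNAs were 729 CPM in each P-body library against 677 and 691 CPM in cytoplasm. Malat1 was enriched and held most of that sum (547 and 526 against 454 and 470 CPM). Neat1 (9.83 and 8.54 against 29.4 and 33.3 CPM) and Snhg11 were depleted. The part of these marker lists in the members' enrichment was not tested.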

How the data were processed

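The counts deposited by the authors are whole numbers of reads, 1 row per gene symbol. Per the study's methods, random-primed total RNA reads (snapTotal-seq) were run through an nf-core pipeline with salmon on mm10 with refGene annotation, so reads shared by copies were split among them by estimation, and genes under 10 reads over the samples were dropped. Deposited columns of fold changes and p-values from the authors' DESeq2 runs were not used. Here, the 2 P-body and 2 cytoplasm mESC libraries were fitted over all 15881 genes with edgeR 4.0.16 in R 4.3.3 (quasi-likelihood, two-sided, TMM, no covariate), with a Benjamini-Hochberg adjusted p under 0.05 as the call, and the fit was tested on simulated data. CPM are TMM-scaled, SE is the log2 change over the square root of F, and sums carry no test. DESeq2 1.42.0, other scalings and filters, a replicate block and the omission of each library were the alternatives, and merging members of identical coding sequence was added after seeing the data. The omission of a library assumes that the lone one varies like the other fraction.

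Positions, GC content, length and 31-mers came from GENCODE M21 (mm10), which held all 57 members, 56 with a coding sequence. The longest transcript or coding sequence was used, and Zfp939 is annotated as a pseudogene there. The detection floor covers counting error only, since reads were counted and the study's methods describe no use of molecular identifiers. Members and gene lists were chosen with earlier results of these data known. Members named are the 8 enriched with the smallest p (mean of at least 5 CPM, no overlap), the 5 highest in level, the 5 highest not called, Zfp932, Zfp961 and the pairs with the most identical proteins, and from the regulators Trim28, Setdb1, Zfp57, Zfp809 and the 2 of smallest p in each direction. Other named genes were chosen after their values were seen.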

Additional observations from a re-analysis of the deposited data

How the results depend on the processing

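The count of enriched members was 49 with DESeq2, 51 with scaling by library size alone and 52 with RLE size factors, with edgeR's filter on low counts and without ribosomal RNA genes; 0 members were depleted in each. The study sorted P-bodies out of the cytoplasm preparation, but the sources used here do not say that equal replicate numbers mark a shared preparation. Same-numbered libraries shared little deviation (correlation 0.061 over 12110 genes), which does not show that they were unpaired. With the replicate block 52 members, 4158 genes enriched and 3244 depleted overall and a median member log2 change of 1.62 were found. Over all genes, DESeq2 called 3376 enriched and 1784 depleted. Scaling by library size alone moved the median of all genes from -0.11 to -0.51 and gave 2591 genes enriched and 6609 depleted, 14 and 19 regulators, a median member log2 change of 1.22 and a family sum of 1.30, but the members' median stood 1.73 above that of all genes under either scaling. The cluster sums were then 1.37 (chromosome 8), 1.54 (chromosome 2), 1.21 (chromosome 4), 1.32 (chromosome 7) and 1.41 (chromosome 17), with 1.34 outside clusters. Under that scaling Zfp954 and Zfp956, not called, had log2 changes of -0.10 and -0.077, and Zfp956 ranged from -0.18 without P-body replicate 1 to 0.71 without P-body replicate 2. The filter on low counts gave a median member log2 change of 1.54 among 56 members, at a median of -0.06 for all genes. Leaving out each library gave 51 to 52 members enriched, 3697 to 3913 genes enriched and 2624 to 2710 depleted, a median member log2 change of 1.62 to 1.70, a family sum of 1.68 to 1.73, a chromosome 4 sum of 1.60 to 1.64 and a sum outside clusters of 1.73 to 1.76. With identical coding sequences merged, an alternative chosen after seeing the data, 49 of 54 members or merged members were enriched. Members under 10 CPM had 6 to 114 counts per library and SEs of 0.20 to 0.67.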
